A study of Mus musculus with 6 samples.

Results

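The genes described here are 10 genes that mark the eosinophil lineage, of 30803 gene rows in the deposited tables. They were chosen by name, as 7 genes for granule proteins (Prg2, Prg3, Epx, Ear1, Ear2, Ear6 and Ear10) and 3 for surface receptors (Siglecf, Ccr3 and Il5ra), and each was found in a single row of every table. RNA sequencing was done on bone marrow cells that the labels call hematopoietic stem cells, the source of every blood lineage. The mice were wild type and 12 months old. The cells were parted by surface MHC class II, the antigen-presenting complex, into an MHCII-lo and an MHCII-hi fraction with 3 libraries each. The sources used here give no gates or sort markers and no number of animals. Nothing states that libraries of a fraction came from separate animals, so the spread and every p-value below describe these libraries only and may be technical.

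Eosinophils are granulocytes that defend against worms and take part in allergic inflammation. Their granules are filled during precursor stages in the marrow, when the genes for major basic protein, eosinophil peroxidase and the eosinophil-associated ribonucleases are transcribed strongly, and that transcription declines as the cell matures. IL-5 drives the lineage through a receptor whose alpha chain is Il5ra, while Ccr3 and Siglec-F are surface receptors used to recognise mature cells.

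The values were taken as FPKM, read fragments divided by transcript length and by the size of the library, a unit that no file header names. On that reading, levels of different genes can be set side by side. The number of reads behind them is unknown. Between 21144 and 21510 genes per library lay above 0. Of 12 stem cell marker genes, 5 (Procr, Slamf1, Mecom, Fgd5 and Hoxb5) were under 1 FPKM in all 6 libraries. Kit was at 14.3 ± 0.175 FPKM (SD, n = 3) in MHCII-lo libraries and 13.9 ± 0.318 in MHCII-hi libraries. Of the summed FPKM, a list of 15 neutrophil markers held 2.82 ± 0.0172% in the MHCII-lo and 15.8 ± 0.0398% in the MHCII-hi libraries. The 4 class II genes set as a check of the sort summed to between 79.4 and 82.9 FPKM in MHCII-lo and between 124 and 126 FPKM in MHCII-hi.

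All 7 granule genes were lower in MHCII-hi, by 2.03- to 3.29-fold in the values as deposited. Prg2 was among the 5 most abundant transcripts of every MHCII-lo library. The 3 receptor genes lay between 1.29 and 12.3 FPKM in both fractions and differed less, with MHCII-hi to MHCII-lo ratios of 0.831 to 1.31. The share of the granule genes in the summed FPKM was 1.65 ± 0.00545% in MHCII-lo libraries and 0.666 ± 0.00324% in MHCII-hi libraries (SD, n = 3). For the receptor genes it was 0.00472 ± 0.00039% and 0.00410 ± 0.00011%. These genes were chosen with the difference between the fractions already known, so their differences are given as a description, without tests. In RNA from many cells, fewer cells that hold these transcripts and less of them per cell cannot be told apart. Which cells held them was not tested. FPKM are also relative to the library total, in which neutrophil markers held a larger share in MHCII-hi.

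**Figure D1:**
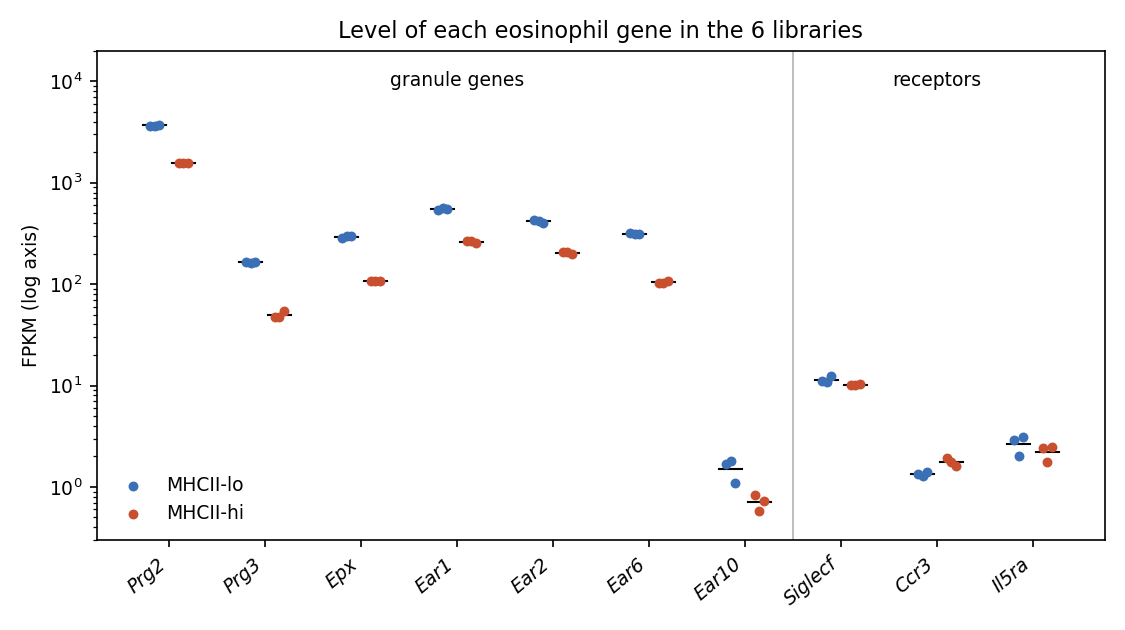
FPKM on a log axis for each of the 10 genes in the 3 MHCII-lo (blue) and 3 MHCII-hi (red) libraries, with the mean of each group as a black line. All 7 granule genes have every red point below every blue point, whereas the receptor genes lie between 1.29 and 12.3 FPKM in both fractions.

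Prg2 encodes major basic protein, the cationic protein of the granule core, and lies on chromosome 2 (84980461 to 84983632, plus strand, 6 exons, GRCm38, ENSMUSG00000027073). It stood at 3661, 3642 and 3709 FPKM in the MHCII-lo libraries and at 1564, 1569.5 and 1578 FPKM in the MHCII-hi libraries. The fractions were far apart relative to their spread, at 3670.4 ± 34.5 and 1570.3 ± 7.11 FPKM (SD, n = 3), a 2.34-fold lower level in MHCII-hi. On the log2(FPKM + 1) scale the difference was -1.22 (SE 0.0113). Prg2 ranked 3 to 5 by level among all genes of the MHCII-lo libraries and 19 to 20 in the MHCII-hi libraries. Prg2 alone accounted for 1.12% of the summed FPKM of MHCII-lo libraries and 0.455% of that of MHCII-hi libraries.

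Prg3 encodes a homologue of major basic protein, and its gene starts 4582 bases beyond the end of Prg2 (chromosome 2, 84988215 to 84993886, plus strand). Its values were 167, 163 and 164 FPKM in MHCII-lo and 47.7, 47.4 and 54.9 FPKM in MHCII-hi. Prg3 was the granule gene with the largest fold difference, 3.29-fold lower in MHCII-hi (log2 difference -1.70, SE 0.0553). Only 12 of the 12037 genes that reached a mean of 1 FPKM had a lower log2 difference. For each 100 FPKM of Prg2 there were 4.48 ± 0.0645 FPKM of Prg3 in MHCII-lo and 3.18 ± 0.256 FPKM in MHCII-hi, so the neighbouring genes were not lower by the same factor. The transcripts of Prg2 and Prg3 were 66.7% identical over 811 aligned bases, and no stretch of 50 bases of either occurred in any other annotated gene.

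Epx encodes eosinophil peroxidase, the haem enzyme of the granule matrix (chromosome 11, 87864000 to 87875536, minus strand, 13 exons). It was measured at 286, 297 and 296 FPKM in MHCII-lo and at 108.1, 107.99 and 108.4 FPKM in MHCII-hi. The 3 MHCII-hi libraries were almost equal, with an SD of 0.218 FPKM. Epx was 2.71-fold lower in MHCII-hi (log2 difference -1.43, SE 0.0205). Relative to Prg2, Epx went from 7.98 ± 0.169 to 6.89 ± 0.0235 per 100 FPKM, with no overlap of the libraries.

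The Ear genes encode small ribonucleases of the granule matrix, the mouse relatives of human eosinophil cationic protein and eosinophil-derived neurotoxin. Ear1 and Ear2 are also transcribed in macrophages and monocytes. The 4 genes lie on chromosome 14. Ear1 (43818765 to 43875517, minus strand), Ear10 (43922720 to 43923559, minus strand) and Ear2 (44102654 to 44103534, plus strand) sit within 284770 bases, and Ear6 (51853699 to 51854643, plus strand) lies 7.75 Mb beyond Ear2. Their upstream sequences are printed to show how closely the genes resemble each other before the start. How far their values can be told apart depends on the transcripts, which are compared below. Each line gives the 250 bases before the annotated start on the gene's own strand, from RefSeq on GRCm38.p6. RefSeq places the start of Ear1 inside the longer span given above, which is from GENCODE. It places the start of Ear6 a little beyond the GENCODE start, so the last bases of the Ear6 window lie inside the span given above. Capitals mark bases that differ from Ear1, or are inserted relative to it, in a global alignment. Bases that run past either end of the Ear1 window stay in lower case.
Ear1: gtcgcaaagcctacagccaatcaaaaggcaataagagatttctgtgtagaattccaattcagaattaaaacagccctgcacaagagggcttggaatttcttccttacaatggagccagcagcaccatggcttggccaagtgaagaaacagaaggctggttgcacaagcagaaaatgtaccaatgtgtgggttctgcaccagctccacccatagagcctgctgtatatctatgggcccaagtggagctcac
Ear2: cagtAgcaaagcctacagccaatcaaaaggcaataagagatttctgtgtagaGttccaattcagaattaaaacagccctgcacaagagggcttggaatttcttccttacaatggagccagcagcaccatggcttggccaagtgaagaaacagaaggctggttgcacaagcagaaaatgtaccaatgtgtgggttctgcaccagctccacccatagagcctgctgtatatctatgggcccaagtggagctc
Ear10: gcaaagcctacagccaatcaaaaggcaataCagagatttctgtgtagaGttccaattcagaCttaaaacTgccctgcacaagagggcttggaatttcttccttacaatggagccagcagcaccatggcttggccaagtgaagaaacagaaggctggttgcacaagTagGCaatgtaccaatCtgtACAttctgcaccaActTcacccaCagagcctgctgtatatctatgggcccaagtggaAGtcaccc
Ear6: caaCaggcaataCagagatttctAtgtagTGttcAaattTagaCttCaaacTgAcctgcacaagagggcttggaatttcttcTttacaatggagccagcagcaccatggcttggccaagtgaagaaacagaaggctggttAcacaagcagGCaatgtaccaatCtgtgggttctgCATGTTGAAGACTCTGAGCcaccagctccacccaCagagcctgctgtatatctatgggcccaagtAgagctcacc
The windows are chr14:43819640-43819889 for Ear1, chr14:44102404-44102653 for Ear2, chr14:43923597-43923846 for Ear10 and chr14:51853518-51853767 for Ear6. Of the aligned bases, 99.2% were identical between Ear2 and Ear1, 93.9% between Ear10 and Ear1, and 92.6% between Ear6 and Ear1, and Ear6 carries an inserted stretch seen as a run of capitals.

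Ear1 stood at 543, 559.7 and 552 FPKM in MHCII-lo and at 265, 264 and 254 FPKM in MHCII-hi, a 2.11-fold lower level (log2 difference -1.08, SE 0.0221). Ear2 stood at 428, 415 and 402 FPKM in MHCII-lo and at 207.5, 207.2 and 200.0 FPKM in MHCII-hi, 2.03-fold lower (log2 difference -1.01, SE 0.0274). Both had no overlap between the fractions, and their ratio to each other did overlap, at 75.3 ± 3.12 and 78.4 ± 0.252 FPKM of Ear2 per 100 of Ear1. Ear6 was at 318, 315 and 310 FPKM in MHCII-lo and at 102.1, 102.9 and 106.7 FPKM in MHCII-hi, 3.03-fold lower (log2 difference -1.59, SE 0.0229). Per 100 FPKM of Ear1 there were 57.0 ± 1.37 FPKM of Ear6 in MHCII-lo and 39.8 ± 1.88 in MHCII-hi, so Ear6 had the larger difference within the family. Ear10 was near the limit of expression, at 1.67, 1.79 and 1.10 FPKM in MHCII-lo and 0.84, 0.58 and 0.72 FPKM in MHCII-hi, with no overlap. By the means of FPKM, Ear10 was 2.13-fold lower. On the log2(FPKM + 1) scale, which shrinks differences of low genes, its difference was -0.55 (SE 0.132), and it was -0.98 with a pseudocount of 0.1 and -0.19 with 5. Its upstream sequence was close to that of Ear1, yet its level was 0.276 ± 0.0665 FPKM per 100 of Ear1 in MHCII-lo and 0.273 ± 0.0491 in MHCII-hi. The mean of Ear10 reached 1 FPKM through its MHCII-lo libraries.

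Reads of Ear1, Ear2 and Ear10 could be shared between genes, and how the authors' quantification placed such reads is not stated, so the separate values of these 3 genes are uncertain. Of the 50-base stretches of the annotated transcripts, 57.4% of those of Ear1, 41.5% of those of Ear2 and 39.9% of those of Ear10 also occurred in another gene. For Ear6 this share was 0.954%, so its value hardly depends on how such reads were shared. The transcripts were 96.8% identical between Ear1 and Ear2, 94.7% between Ear2 and Ear10 and 88.8% between Ear1 and Ear6. The gene that shared most with Ear1 was the pseudogene Ear-ps9, which overlaps the far end of the annotated span of Ear1 and runs just past it (43874875 to 43875537). Ear-ps9, chosen after its values were seen, was listed at 107.1 ± 3.59 FPKM in MHCII-lo and at 53.1 ± 3.12 FPKM in MHCII-hi (SD, n = 3). This was 19.4 ± 0.838 and 20.3 ± 0.776 FPKM per 100 of Ear1, with overlapping libraries.

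Of the receptor genes, Ccr3 and Il5ra were low in both fractions. Siglecf was higher, ranking 4033 to 4414 by level in the MHCII-lo libraries and 4529 to 4574 in the MHCII-hi libraries. Siglecf, a sialic acid-binding inhibitory receptor by which mouse eosinophils and alveolar macrophages are stained (chromosome 7, 43351341 to 43359531, plus strand), was at 11.1, 10.95 and 12.3 FPKM in MHCII-lo. In MHCII-hi it was at 10.1, 10.2 and 10.2 FPKM. The log2 difference was -0.15 (SE 0.0490), and it was 0.04 when neutrophil markers were left out of the library total, so its direction depended on the scaling. Ccr3, the receptor for eotaxins (chromosome 9, 124021972 to 124031689, plus strand), was at 1.35, 1.29 and 1.42 FPKM in MHCII-lo and at 1.91, 1.77 and 1.62 FPKM in MHCII-hi. Ccr3 was the only one of the 10 genes with every MHCII-hi library above every MHCII-lo library (log2 difference 0.23, SE 0.0744). Il5ra, the ligand-binding chain of the IL-5 receptor (chromosome 6, 106710357 to 106749037, minus strand), was at 2.88, 2.03 and 3.10 FPKM in MHCII-lo and at 2.43, 1.77 and 2.46 FPKM in MHCII-hi. Its libraries overlapped (log2 difference -0.18, SE 0.141). The difference of Il5ra was -0.08 without MHCII-hi replicate 2, -0.10 without MHCII-lo replicate 3 and -0.32 without MHCII-lo replicate 2, so single libraries weigh on it.

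The receptor transcripts can also be set against the granule transcripts of the same library. There were 0.312 ± 0.0176 FPKM of Siglecf per 100 of Prg2 in MHCII-lo and 0.648 ± 0.00086 in MHCII-hi (SD, n = 3), with no overlap. Il5ra stood at 23.2 ± 4.10 and 21.8 ± 3.80 FPKM per 100 of Siglecf, with overlapping libraries. In MHCII-lo the order of levels was Prg2, Ear1, Ear2, Ear6, Epx, Prg3, Siglecf, Il5ra, Ear10 and Ccr3, and Ear10 and Ccr3 overlapped. In MHCII-hi, Epx stood just above Ear6 (107.99 against 106.7 FPKM for the nearest libraries), Ear10 came last, and Il5ra and Ccr3 overlapped. All other neighbours in both orders had values that did not overlap.

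Of the 7 granule genes, 7 had all 3 MHCII-hi libraries below all 3 MHCII-lo libraries, as did 45.0% of the 12037 genes whose mean reached 1 FPKM. As deposited, all 7 were at least 2-fold lower by their means, as were 3.15% of those genes. Ear1 and Ear2 were only just past 2-fold and fell short of it after rescaling. Their log2 differences were -0.94 and -0.88 after median-ratio scaling, and -0.87 and -0.81 with neutrophil markers left out of the total. Ear10 reached the limit of 1 FPKM only through its MHCII-lo libraries (means 1.52 and 0.713 FPKM), and its log2 difference was -0.55. Ccr3 was the 1 gene of the 10 with all MHCII-hi libraries higher, as were 22.6% of genes, and 9 of the 10 had no overlap in either direction, as had 67.6%. Since the choice of these genes used this contrast, nothing is read from the counts. The median log2 difference was -1.22 over the 7 granule genes and -0.15 over the 3 receptor genes, beside -0.12 over all 12037 genes, whose quartiles were -0.31 and 0.11. After median-ratio scaling the median gene moved to -0.01 and the granule median to -1.09. With neutrophil markers left out of the total, the granule median was -1.02, the receptor median 0.04 and the median gene 0.05.

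**Figure D2:**
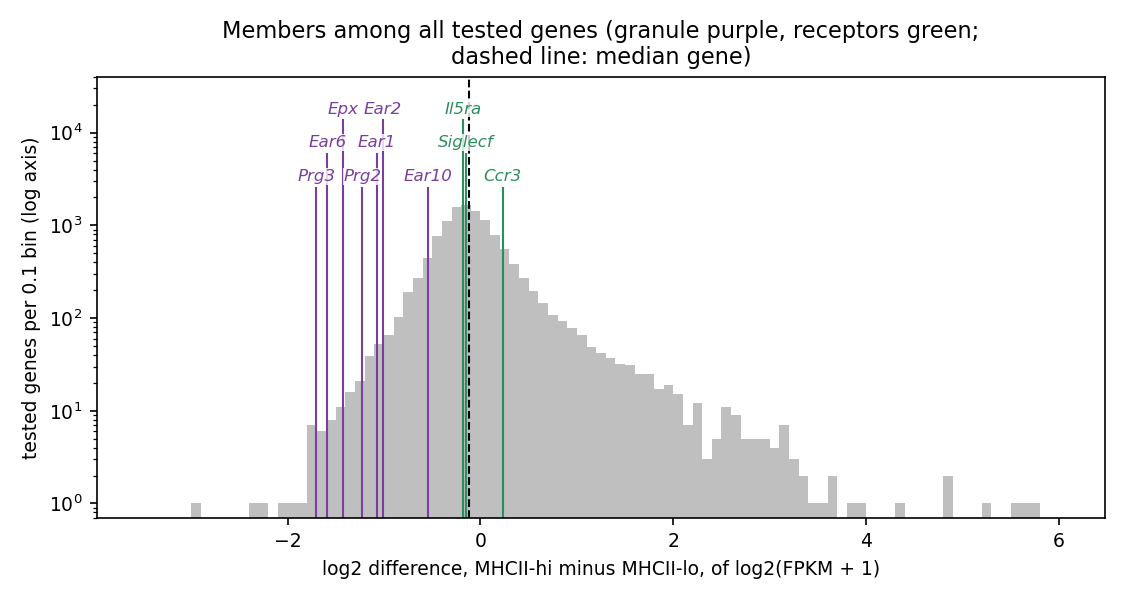
Histogram of the log2 difference, MHCII-hi less MHCII-lo, of log2(FPKM + 1) over 12037 genes (log count axis, bins of 0.1), with lines at the granule genes (purple), the receptors (green) and the median gene (dashed, -0.12). The granule lines other than Ear10 fall between -1.70 and -1.01, that of Ear10 at -0.55, and the receptor lines between -0.18 and 0.23.

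Other lineages that pass through the same marrow stages were summed in the same way, from lists of marker genes. The basophil and mast cell list of 11 genes summed to between 843 and 869.9 FPKM in MHCII-lo and between 407 and 416 FPKM in MHCII-hi, a ratio of 0.479. Of its 7 tested genes, 5 were lower and 1 higher (limma), and 1 of its 11 genes, the mast cell tryptase Tpsab1, was at 0 in all libraries. The granule genes of eosinophils summed to between 5393 and 5435 FPKM in MHCII-lo and between 2295 and 2303 FPKM in MHCII-hi, a ratio of 0.425. The monocyte and macrophage list of 7 genes had a ratio of 0.638, with sums of 634 to 644 and 398 to 422 FPKM, and none of its genes was at 0. In that list 6 genes were lower and 1 higher. Over all 12037 tested genes, 40.6% were lower and 20.4% higher. None of its 7 genes was under 1 FPKM in all libraries, as 4 of the basophil and mast cell genes were. The primary granule list of neutrophil and monocyte precursors had a ratio of 0.831 (5940 to 6095 and 4963 to 5029 FPKM), with 4 of 6 tested genes lower and 1 higher. The neutrophil list had a ratio of 5.898 (9223 to 9308 and 54303 to 54930 FPKM), with 15 of 15 genes higher. These sums were set side by side only, and their part in the levels of the eosinophil genes was not tested.

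**Figure D3:**
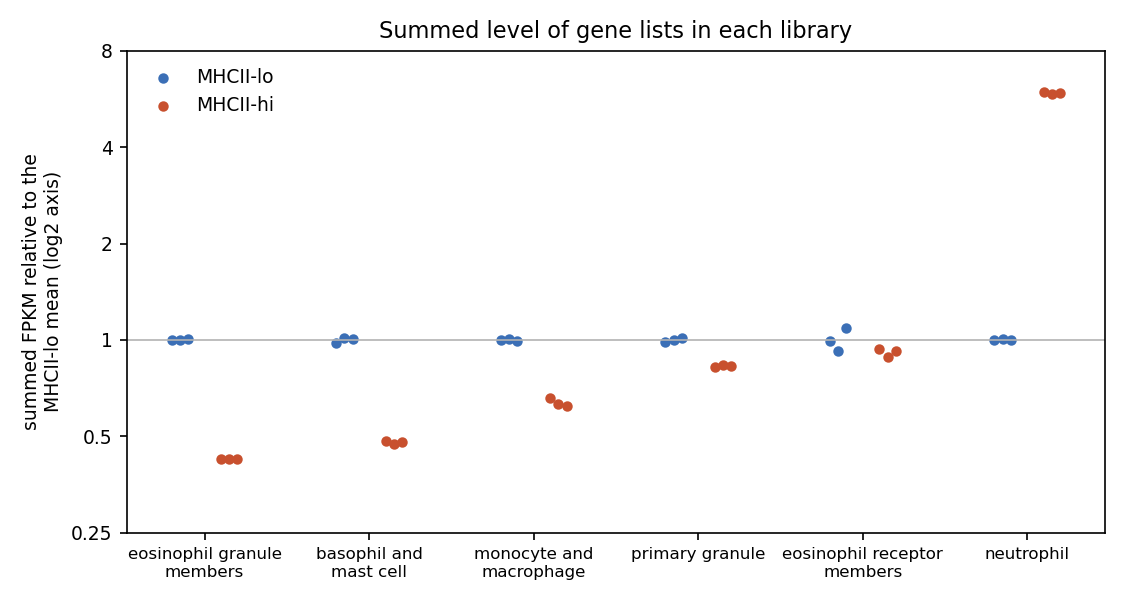
Summed FPKM of each gene list in each library, relative to the mean of the MHCII-lo libraries (log2 axis), with MHCII-lo in blue and MHCII-hi in red. The eosinophil granule genes (0.424 to 0.426 in MHCII-hi) lie beside the basophil and mast cell list (0.474 to 0.484), and the neutrophil list lies at 5.87 to 5.94.

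The other genes of the eosinophil lineage went both ways. They were taken from 7 lists with 53 entries, of which 42 were found and 32 reached a mean of 1 FPKM and were tested. By limma with Benjamini-Hochberg adjustment over all 12037 genes, 15 of the 32 were higher in MHCII-hi, 13 lower and 4 not called. The higher calls include Cd101, whose mean reached 1 FPKM only through its MHCII-hi libraries. Among all tested genes, 20.4% were higher and 40.6% lower, 60.9% in either direction. The median log2 difference of the 32 was 0.12, against -0.12 over all tested genes. Of all calls, 33.4% were in the higher direction as deposited, 52.1% after median-ratio scaling and 63.9% with neutrophil markers left out of the total.

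Of 4 genes for other chains of the IL-5, IL-3 and GM-CSF receptors, 3 were higher and 1 lower. Csf2rb, the signalling chain shared by the receptors for IL-5, IL-3 and GM-CSF, was at 24.95, 24.92 and 25.01 FPKM in MHCII-lo and at 49.9, 50.4 and 49.1 FPKM in MHCII-hi. It was 1.99 times as high in MHCII-hi (log2 difference 0.97, SE 0.0243, adjusted p 2.15e-07), while Il5ra itself overlapped between the fractions. Csf2rb2, the IL-3-specific copy of that chain in mice, rose from 7.72 ± 0.297 to 15.8 ± 0.291 FPKM (adjusted p 1.97e-06). Csf2rb and Csf2rb2 are near-identical neighbouring genes, so reads may have been shared between them. Csf2ra, the GM-CSF receptor alpha chain, rose from 54.2 ± 1.11 to 71.9 ± 1.71 FPKM (adjusted p 2.63e-05), and Il3ra, the IL-3 receptor alpha chain, fell from 10.2 ± 0.748 to 6.71 ± 0.518 FPKM (adjusted p 0.000545). Neutrophils and other myeloid cells use Csf2rb and Csf2ra as well.

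Of 11 lineage transcription factors and their regulators, 5 were higher, 5 lower and 1 not called. Gata1 and Gata2, which drive eosinophil fate, were named after their values were seen, as were Zfpm1, Trib1 and Id1. Gata1 was at 8.46, 7.99 and 8.39 FPKM in MHCII-lo and at 4.76, 4.45 and 3.91 FPKM in MHCII-hi, a fall by 0.79 on the log2 scale (SE 0.0657, adjusted p 6.35e-05). Gata2 fell from 14.5 ± 0.554 to 10.7 ± 0.676 FPKM (adjusted p 0.000559). Zfpm1, the GATA cofactor FOG-1, fell from 7.22 ± 0.243 to 5.76 ± 0.462 FPKM (adjusted p 0.00559), a call lost without neutrophil markers in the total (0.183). Trib1, a pseudokinase that shapes eosinophil and neutrophil identity, rose from 19.8 ± 0.240 to 32.7 ± 1.19 FPKM (log2 difference 0.69, adjusted p 4.8e-06). Id1, an inhibitor of helix-loop-helix factors, did not pass the test (10.9 ± 1.10 and 12.1 ± 0.346 FPKM, adjusted p 0.109), but did after median-ratio scaling (0.0147), without neutrophil markers in the total (0.00537) and without MHCII-lo replicate 1 (0.00975). Cebpa, a factor of early granulocyte commitment, fell from 47.4 ± 1.40 to 26.4 ± 1.57 FPKM (log2 difference -0.82, adjusted p 9.8e-06). Irf8, which is needed for monocytes and dendritic cells and also affects eosinophil development in mice, fell from 42.1 ± 0.714 to 12.3 ± 0.464 FPKM (log2 difference -1.70, adjusted p 8.41e-08). Cebpe, which controls late granule genes of neutrophils and eosinophils, rose from 34.2 ± 0.983 to 55.3 ± 2.55 FPKM (log2 difference 0.68, adjusted p 1.26e-05). Spi1, the myeloid factor PU.1, rose from 60.5 ± 2.45 to 84.3 ± 1.43 FPKM (adjusted p 2.9e-05), and Xbp1, which eosinophil precursors need for secretory protein load, from 59.1 ± 1.19 to 70.01 ± 1.48 FPKM (adjusted p 0.000274). Id2 was at 26.1 ± 2.02 and 30.01 ± 1.37 FPKM (adjusted p 0.0261), a call lost without MHCII-hi replicate 1 (0.0763) or 3 (0.0771) and without MHCII-lo replicate 2 (0.0620) or 3 (0.0626), and without the limit on low values (0.0634). The neutrophil markers rose from 2.82% to 15.8% of summed FPKM between the same fractions, and their part in the differences of these factors was not tested.

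**Figure D4:**
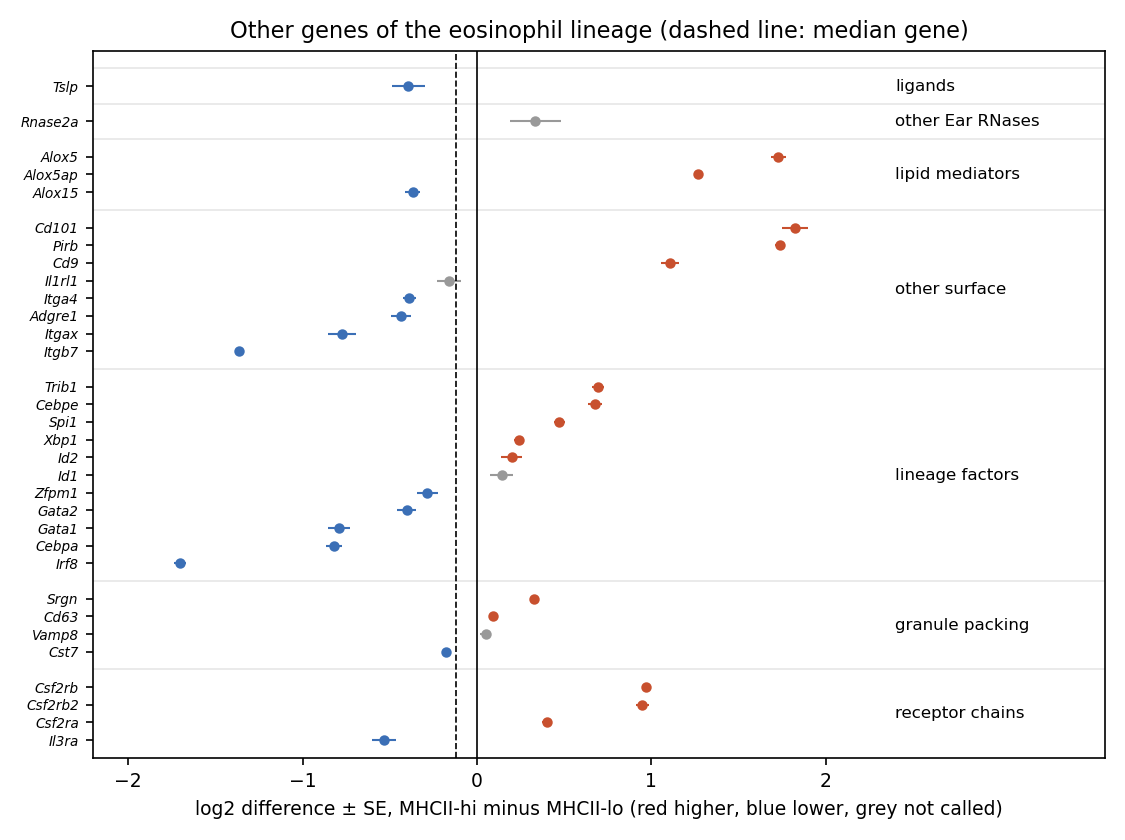
Log2 difference ± SE, MHCII-hi minus MHCII-lo, of the 32 tested genes from the other eosinophil lists, with higher calls in red, lower calls in blue and uncalled genes in grey. Irf8 (-1.70) and Itgb7 (-1.36) lie at the lower end and Cd101 (1.82), Pirb (1.74) and Alox5 (1.73) at the upper end. Cd101 and Rnase2a reached a mean of 1 FPKM only through their MHCII-hi libraries. Cst7 (-0.18) turns to 0.03 without neutrophil markers in the total.

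Upstream windows of the 10 members were searched for AGATAA or TGATAA on either strand, which are forms of the core letters bound by GATA factors. Other forms of these letters were not searched, so the counts cover these forms only. Within 250 bases before the start, 1 match was found in each of Prg3, Ccr3 and Il5ra and none in Epx, Siglecf, Ear1, Ear2, Ear6 or Ear10. Of 32851 promoter windows in the RefSeq table, 16.6% held a match. Prg2 had no entry. The window of Prg3 (chr2:84987965-84988214, GRCm38.p6, plus strand) is shown because this granule gene had the largest fold difference, with the GATA letters, at positions -123 to -118 from the start and read on the opposite strand, in capitals.
Prg3: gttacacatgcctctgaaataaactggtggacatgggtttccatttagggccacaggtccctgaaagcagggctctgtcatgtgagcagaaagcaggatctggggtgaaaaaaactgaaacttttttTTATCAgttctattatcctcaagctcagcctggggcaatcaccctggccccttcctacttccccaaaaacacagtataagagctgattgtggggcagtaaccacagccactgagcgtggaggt
The C/EBP-type letters TTNNGNAA, searched on both strands, matched in the windows of Prg3, Ear1, Ear2, Ear6, Ear10, Siglecf and Ccr3. They were found nowhere in Epx or Il5ra, and 36.8% of all windows held a match. The windows of Ear2, Ear10 and Ear6 are 92.6 to 99.2% identical to that of Ear1. Matches in the Ear windows, or their absence, are therefore not independent of each other, and nothing is read from their number. The motifs do not overlap in the Prg3 window. Matches of this kind do not show that a factor binds there.

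Of 5 genes of granule packing, 4 were found. Srgn, the proteoglycan serglycin that holds cationic granule proteins, rose from 445 ± 6.23 to 558.7 ± 4.86 FPKM (adjusted p 4.98e-06). Cd63, a granule membrane protein, was at 58.7 ± 0.635 and 62.5 ± 0.753 FPKM (log2 difference 0.09, adjusted p 0.0115). Cst7, cystatin F, was at 131 ± 0.875 and 116 ± 1.37 FPKM (log2 difference -0.18, adjusted p 0.000211), a call lost after median-ratio scaling (adjusted p 0.0666) and turned in direction without neutrophil markers in the total. Vamp8, a vesicle fusion protein, did not pass the test (48.4 ± 1.30 and 50.2 ± 1.22 FPKM, adjusted p 0.199), but was called higher after median-ratio scaling (0.00259) and without neutrophil markers in the total (0.000443). These genes serve the granules of many blood cells.

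Of 12 other surface genes of eosinophils, 8 were tested, 3 higher and 4 lower. Itgb7, an integrin chain of eosinophils, mast cell precursors and lymphocytes, fell from 73.8 ± 1.09 to 28.1 ± 0.360 FPKM (log2 difference -1.36, SE 0.0246, adjusted p 4.38e-08). Itga4, its partner, fell from 24.6 ± 0.609 to 18.6 ± 0.545 FPKM (adjusted p 9.37e-05), and Adgre1, an adhesion receptor of macrophages and eosinophils, from 17.9 ± 1.24 to 12.96 ± 0.632 FPKM (adjusted p 0.000657). Itgax, CD11c, fell from 3.47 ± 0.242 to 1.61 ± 0.188 FPKM (adjusted p 0.00017). Pirb, an inhibitory receptor of myeloid cells, rose from 30.8 ± 1.08 to 105 ± 0.464 FPKM (log2 difference 1.74, adjusted p 3.54e-08), and Cd9, a tetraspanin, from 24.6 ± 0.906 to 54.1 ± 3.58 FPKM (adjusted p 3.65e-06). The IL-33 receptor Il1rl1 (2.52 ± 0.185 and 2.15 ± 0.139 FPKM, adjusted p 0.0862) did not pass the test, but did without the intensity trend (0.0479). Il1rl1, Ptgdr2, Hrh4 and Cd101 (0.543 ± 0.0802 and 4.46 ± 0.244 FPKM, adjusted p 1.76e-06) were named after their values were seen. The mean of Cd101 reached 1 FPKM only through its MHCII-hi libraries, so its entry into the test depended on the fraction where it is high. Ptgdr2, the prostaglandin D2 receptor of mature eosinophils, was at or under 0.16 FPKM in every library, and Hrh4 at or under 0.43 FPKM.

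Among the enzymes of lipid mediators, Alox5ap and Alox5, which start leukotriene synthesis in all granulocytes, rose from 212 ± 4.03 to 512 ± 7.58 FPKM (adjusted p 2.78e-08) and from 12.8 ± 0.5103 to 44.6 ± 1.96 FPKM (adjusted p 2.34e-07). Alox15, the lipoxygenase of eosinophils and resident macrophages, went the other way, from 48.2, 53.6 and 49.2 FPKM in MHCII-lo to 37.95, 39.0 and 39.2 FPKM in MHCII-hi (log2 difference -0.37, SE 0.0429, adjusted p 0.000336). Ltc4s, which makes leukotriene C4, was at 0.11, 0.19 and 0 FPKM in MHCII-lo and at 0.48, 0.60 and 0.81 FPKM in MHCII-hi, under the limit for testing. Of 5 ligands found that act on eosinophils, 4 were under 1 FPKM in all libraries. Il5 was listed at 0 in all libraries, Csf2 reached 0.10 FPKM at most, Il33 reached 0.03 FPKM and the eotaxin Ccl24 reached 0.27 FPKM. Tslp alone reached the limit for testing and fell from 1.73 ± 0.0265 to 1.09 ± 0.219 FPKM (adjusted p 0.0107), a call lost without neutrophil markers in the total (0.0524). Of the remaining ribonucleases, Rnase2a (Ear11 by its older name) was at 0.870 ± 0.210 and 1.37 ± 0.384 FPKM (adjusted p 0.0871). The mean of Rnase2a reached 1 FPKM only through its MHCII-hi libraries. A call was gained without MHCII-hi replicate 3 (0.0249) or without neutrophil markers in the total (0.0415). Rnase2b (older name Ear5) reached 0.47 FPKM at most.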

How the data were processed

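Per the labels, RNA from sorted marrow cells of wild-type mice was made into stranded mRNA libraries, with 3 libraries per fraction. Tools named in the submitters' processing notes are fastp, HISAT2 and StringTie, and the build is GRCm38 (mm10); versions and use of strand are not given. The deposited values, 1 table per library with 30803 rows, were taken as FPKM from their 2 decimals and unequal sums; no header names the unit, and depth is unknown. FPKM are relative, so an abundant gene set lowers all others.

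Where a symbol repeated (70 extra rows), the row with the highest mean was kept. The 12037 genes whose mean reached 1 FPKM were tested on log2(FPKM + 1) with limma 3.58.1 (R 4.3.3, intensity trend, group as the only term, Benjamini-Hochberg at 0.05); the fit was tested on simulated data. All 10 members passed this limit, but no test of them is reported, since the members and lists were chosen with earlier results of these data known. Named genes were the members and, per eosinophil list, all genes of lists of 5 or fewer and otherwise the 6 with the highest mean; others are said to be chosen after their values were seen. Entries of the lists without a row are not analysed here. Same-numbered libraries did not deviate together (correlations -0.0533, -0.0455 and -0.0434). This gives no sign that the numbers pair them, but 3 libraries per fraction cannot exclude it. Gene positions and transcripts are GENCODE M21 (GRCm38); promoters are RefSeq (GRCm38.p6), where 9 of 10 members matched. Biopython 1.88 aligned sequences. Alternatives changed scaling, pseudocount, low-value limit, trend, block and single libraries; leaving neutrophil markers out of the total was chosen after seeing the data.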

Additional observations from a re-analysis of the deposited data

How the results depend on the processing

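The 7 granule genes were lower in MHCII-hi under the scalings and pseudocounts run and without each library; the low-value limit, trend and block were run for the tests only. Their median log2 difference of -1.22 became -1.09 after median-ratio scaling, -1.38 after quantile normalization and -1.02 when the total left out neutrophil markers (chosen after seeing the data), and it ranged from -1.23 to -1.22 without single libraries. The receptor median of -0.15 became 0.04 without neutrophil markers in the total, the value of Siglecf (0.0361), and ranged from -0.18 (without MHCII-lo replicate 2) to -0.08 (without MHCII-hi replicate 2). Of all genes, 2450 were called higher and 4883 lower; these counts were 3396 and 3119 after median-ratio scaling, 4071 and 2297 without neutrophil markers in the total, and 2210 to 2281 and 4335 to 4514 without single libraries. Of the other eosinophil genes, 15 were called higher and 13 lower, with 17 and 12 after median-ratio scaling, 18 and 10 without neutrophil markers in the total, and 14 to 16 and 13 without single libraries. Cst7 turned in direction without neutrophil markers in the total (adjusted p 0.292). With the replicate number as a block, 2305 genes were called higher and 4659 lower. Whether the numbers pair the libraries is not stated. Among values of single genes under the alternatives, 544 kept their direction and side of the threshold or moved within the spread between libraries, 23 moved by more than that spread, 8 lost a call, 8 gained one and 2 changed sign. The pseudocount weighs on low genes: Ccr3 differed by 0.36 with a pseudocount of 0.1 and by 0.09 with 5. Depth is unknown, so the error of values near 1 FPKM (Ear10, Ccr3, Il5ra) rests on the spread of 3 libraries.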

Other observations

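Other genes of the ribonuclease A family and the peroxidases related to Epx were looked up after the data had been seen. Rnase6, a ribonuclease of monocytes and macrophages encoded on the same chromosome as the Ear genes, fell from 11.8 ± 0.799 FPKM in MHCII-lo to 6.40 ± 0.652 FPKM in MHCII-hi (log2 difference -0.79, SE 0.0752, limma adjusted p 0.000126), lower in 3 of 3 MHCII-hi libraries. Rnase12 fell from 10.3 ± 2.07 to 5.34 ± 0.985 FPKM (log2 difference -0.83, SE 0.154, adjusted p 0.00312). Rnase4 was at 4.83 ± 0.695 and 3.90 ± 1.06 FPKM and did not pass the test (adjusted p 0.209). Rnase10 was at 0.743 ± 0.218 and 1.03 ± 0.0569 FPKM, with all MHCII-hi libraries above all MHCII-lo libraries, and Ang was at 1.23 ± 0.356 and 0.717 ± 0.232 FPKM, with overlap; both had a mean under 1 FPKM and were not tested. Rnase1 reached 0.07 FPKM at most, and Rnase11 was listed at 0 in all libraries. Mpo, the myeloperoxidase of neutrophil and monocyte precursors and a relative of Epx on the same chromosome, fell from 2044 ± 22.95 to 1566 ± 5.95 FPKM, by 0.38 on the log2 scale (SE 0.0123, adjusted p 5.89e-07), beside a log2 difference of -1.43 for Epx; the difference between these was not tested. Lpo, the lactoperoxidase, stayed under 1 FPKM in all libraries (0.897 ± 0.0814 and 0.567 ± 0.218 FPKM) and was not tested. All its MHCII-hi libraries lay below all its MHCII-lo libraries.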
